A study of Mus musculus with 12 samples.

Results

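The data described here are the levels of 43 interferon-stimulated genes in lymphatic endothelial cells (LEC) and blood endothelial cells (BEC) sorted from mouse ear skin. The list holds known targets of interferon signalling and was chosen with earlier results of these data known. Its genes were sought on the arrays by symbol, older symbols included, with the brightest row standing for a gene. Of the 43, 41 had a row of their own, out of 30656 genes with such a row. After a filter that kept genes above the array's median on at least 3 of 12 arrays, 40 were tested, out of 19624 genes tested in all. Mx1 did not pass that filter, Ifi47 shared its row with another gene, and Ifi44 was not analysed here. Oas2 and Oasl2 passed only through the BEC arrays, so that a difference was built into their selection. Sp100 was above the median on 1 LEC array and 3 BEC arrays, so its place in the test also rested on BEC.

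The study compared 3 groups of LEC, taken from successive stretches of the lymphatic network, among themselves and with BEC. Collecting vessel cells (col LEC) had little or no surface LYVE1, pre-collecting vessel cells (pre-col LEC) had an intermediate level and capillary cells (cap LEC) a high level. LYVE1 is a hyaluronan receptor. BEC were the PECAM1-bearing cells without podoplanin, reporter fluorescence or LYVE1. All 4 groups came from C57BL6 mice with the transgene Tg(Prox1-EGFP)KY221Gsat, in which regulatory sequence of Prox1, the master transcription factor of lymphatic identity, drives a green fluorescent protein. The mice were 5 weeks old in the design text and adult in the sample labels. No infection or interferon treatment is named for any group. Each group had 3 arrays labelled as biological replicates. The labels do not say whether an array holds the cells of a single mouse or of a pool, so the p-values measure only the spread between these samples.

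Interferons are secreted proteins, and those of type I are released by cells that detect viral nucleic acid. Type I interferons bind the receptor pair IFNAR1 and IFNAR2, and the kinases JAK1 and TYK2 then activate a complex with STAT2 and IRF9 that binds interferon-stimulated response elements. Interferon gamma signals through its own receptor, and its targets are reached through gamma-activated sequences. The genes so induced include the sensors and transcription factors of the pathway itself, which raises the response to a later signal, and effectors that degrade viral RNA, block its translation or attack pathogen-containing vacuoles. Many of them also have a basal level in uninfected tissue, endothelium included.

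All values are log2 RMA values, in which 1 unit is a 2-fold difference, and they cannot be compared between genes because each gene has its own probes. Array medians lay between 6.06 and 6.17, and a value near or below that is at the dim end of the scale, where differences are compressed. Lymphatic markers were called higher in LEC for 8 of 9 genes tested and blood endothelial markers lower for 9 of 9. Over all genes 12% were higher and 10.6% lower. BEC replicate 1 carried Mmrn1, a lymphatic gene, at 9.84, against 6.55 and 6.52 on the other BEC arrays. Markers of mural cells, the contractile cells that wrap blood vessels, were lower in LEC for 9 of 9 genes. Their summed linear level was 1133 to 1243 in col LEC, 1306 to 4120 in pre-col LEC, 1001 to 1649 in cap LEC and 7300 to 8957 in BEC. Pre-col LEC replicate 1 held the highest of the LEC values. The pan-leukocyte marker Ptprc was dim on every array, at 4.25 to 4.94, as was Siglech, a marker of plasmacytoid dendritic cells, at 5.92 to 6.08.

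The interferon-stimulated genes were lower in LEC than in BEC. Of the 40 tested, 34 were lower, 0 were higher and 6 were not called by limma at an adjusted p under 0.05, where LEC is the mean of the 3 lymphatic groups. The single gene with a positive estimate, Zbp1, had an unadjusted p of 0.534. Over all genes tested, 10.6% were lower and 12% were higher. Because the genes were chosen with earlier results of these data known, their counts are a description and not independent support. The median log2 fold change, LEC minus BEC, was -0.94 over the 40 genes and -0.02 over all genes. Without Oas2 and Oasl2, 32 of 38 were lower and the median was -0.91. Sp100, whose place in the test also rested on BEC arrays, is among the 32. A difference of at least 2-fold was called for 19 genes, Oas2 and Oasl2 among them, against 2.96% of all genes. The largest estimates were those of Sp100, Rsad2, Trim30a, Rtp4 and Parp14. Every LEC array lay below every BEC array for 32 of the 40 genes, as it did for 9.45% of all genes. In bulk samples such as these, fewer cells with a transcript and less of it per cell cannot be told apart.

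**Figure D1:**
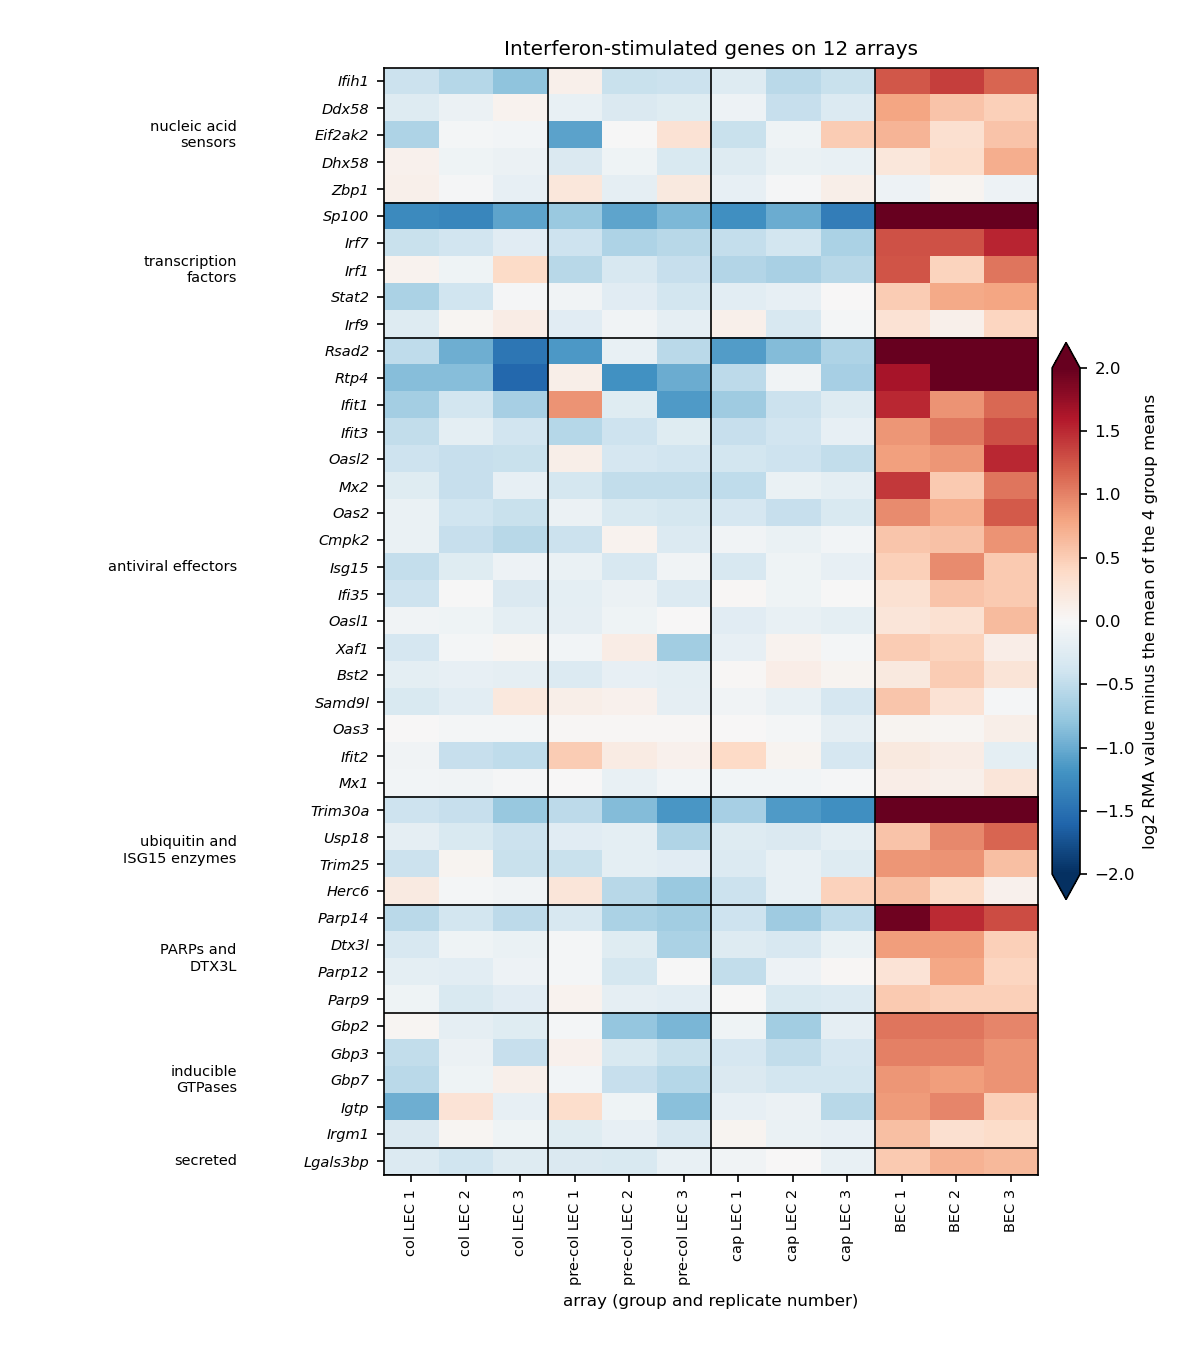
Heat map of 41 interferon-stimulated genes (rows, by role) on the 12 arrays (columns, by group and replicate). Colour gives the log2 RMA value minus the mean of the 4 group means of that gene, capped at 2 in either direction. The 3 BEC columns are the red ones for most genes, and Zbp1, Oas3 and Ifit2 show little contrast.

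Among the transcription factors, 5 of 5 were lower in LEC. For this and the following counts by role, the share of all genes lower in LEC was 10.6%. Sp100, a component of PML nuclear bodies, had the largest difference of the 40 genes. Sp100 read 5.64, 5.60 and 5.85 on the col LEC arrays, 6.16, 5.86 and 6.01 on the pre-col LEC arrays, 5.69, 5.92 and 5.52 on the cap LEC arrays and 10.43, 10.20 and 10.02 on the BEC arrays. The 9 LEC arrays lay at the dim end of the scale and more than 3 log2 units below the BEC arrays. Sp100 had a log2 fold change of -4.41 ± 0.11 (moderated standard error), or 21.3-fold. It was above the array median on 1 LEC array only, so its place in the test rested on BEC. These values are therefore a description. The mouse genome holds further copies of Sp100 sequence, and probes may be shared with them. Irf7, the factor that amplifies type I interferon production, was 3.53-fold lower in LEC. The col LEC arrays gave 7.80, 7.85 and 8.02 for Irf7, the pre-col LEC arrays 7.83, 7.63 and 7.68, the cap LEC arrays 7.77, 7.87 and 7.60 and the BEC arrays 9.52, 9.52 and 9.77. The LEC arrays lay close together and did not overlap with the BEC arrays. For Irf7 LEC minus BEC came to -1.82 ± 0.09 (limma adjusted p = 1.28e-08).

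Irf1, induced mainly by interferon gamma and a driver of antigen presentation genes, was lower in LEC, with its highest LEC values in col LEC. In col LEC Irf1 had levels of 9.05, 8.89 and 9.37, in pre-col LEC 8.42, 8.66 and 8.52, in cap LEC 8.39, 8.33 and 8.42 and in BEC 10.23, 9.43 and 10.05. BEC were highest, col LEC came next without overlapping either the BEC or the other LEC arrays, and pre-col and cap LEC were lowest. Irf1 had a log2 fold change of -1.23 ± 0.15 (adjusted p = 5.39e-05). A second, dimmer row of Irf1 ranged from 6.36 to 7.25 on LEC arrays and from 6.82 to 7.52 on BEC arrays, so that the groups overlapped there. Stat2, a subunit of the complex that type I interferon activates, had 8.49 to 9.14 (median 8.92) on LEC arrays and 9.64, 9.89 and 9.92 on BEC arrays, without overlap. The log2 fold change of Stat2 was -0.92 ± 0.12 (adjusted p = 0.000114). Irf9, its DNA-binding partner, differed least: the LEC arrays had 8.54 to 9.01 (median 8.79) and the BEC arrays 9.15, 8.97 and 9.29, and these overlapped. Irf9 had a log2 fold change of -0.36 ± 0.11 (adjusted p = 0.0306), and the call was lost without BEC replicate 1, without BEC replicate 3 and with array weights (adjusted p up to 0.163).

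Of the 5 sensors of viral RNA and DNA, 3 were lower in LEC. Ifih1, which encodes MDA5, a sensor of long double-stranded RNA, was 3.22-fold lower. Ifih1 read 6.94, 6.79 and 6.56 on the col LEC arrays, 7.46, 6.92 and 6.94 on the pre-col LEC arrays, 7.10, 6.82 and 6.91 on the cap LEC arrays and 8.61, 8.74 and 8.52 on the BEC arrays. Pre-col LEC replicate 1 was the highest LEC array and was still more than 1 unit below the lowest BEC array. For Ifih1 LEC minus BEC came to -1.69 ± 0.12 (adjusted p = 5.46e-07). Ddx58, which encodes RIG-I, a sensor of RNA with a triphosphate end, had 8.55 to 9.08 (median 8.76) on LEC arrays and 9.80, 9.58 and 9.48 on BEC arrays. Ddx58 had a log2 fold change of -0.82 ± 0.10 (adjusted p = 4.73e-05). Dhx58, which encodes LGP2, a regulator of both sensors, had 7.42 to 7.80 (median 7.58) on LEC arrays and 7.95, 8.07 and 8.44 on BEC arrays. For Dhx58 LEC minus BEC came to -0.58 ± 0.10 (adjusted p = 0.000852). Neither gene overlapped between LEC and BEC.

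The remaining sensors were not called. Eif2ak2, which encodes the kinase PKR that stops translation on double-stranded RNA, had 6.86 to 8.44 (median 7.87) on LEC arrays and 8.61, 8.25 and 8.50 on BEC arrays, so that the LEC arrays ran into the BEC range. Eif2ak2 had a log2 fold change of -0.69 ± 0.27 (adjusted p = 0.0857). It was called without pre-col LEC replicate 3 (adjusted p = 0.0424). Zbp1, a sensor of Z-form nucleic acid that triggers necroptosis, had 6.75 to 7.16 (median 6.91) on LEC arrays and 6.83, 6.98 and 6.83 on BEC arrays. The BEC arrays lay inside the LEC range. For Zbp1 LEC minus BEC came to 0.06 ± 0.10 (adjusted p = 0.675).

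Antiviral effectors were lower in LEC for 13 of 16 genes tested, a count that includes Oas2 and Oasl2. Rsad2, which encodes viperin, an enzyme that makes a chain-terminating nucleotide, was 9.81-fold lower. Its levels were 6.58, 6.10 and 5.63 in col LEC, 5.93, 6.94 and 6.54 in pre-col LEC, 5.96, 6.21 and 6.46 in cap LEC and 9.54, 9.66 and 9.46 in BEC. LEC arrays varied by more than 1 unit, mostly within col and pre-col LEC, and all lay far below the BEC arrays. Only 6 LEC arrays were above the array median, and the others lay at the dim end of the scale. Rsad2 had a log2 fold change of -3.29 ± 0.21 (adjusted p = 2.02e-07). Its genomic neighbour Cmpk2, a nucleotide kinase, had 8.86 to 9.47 (median 9.28) on LEC arrays and 9.96, 10.00 and 10.31 on BEC arrays, without overlap. The log2 fold change of Cmpk2 was -0.91 ± 0.12 (adjusted p = 0.000108). Rtp4, a transporter protein for receptors that type I interferon induces, was 7.62-fold lower. In col LEC Rtp4 had levels of 5.96, 5.95 and 5.23, in pre-col LEC 6.93, 5.60 and 5.82, in cap LEC 6.29, 6.73 and 6.15 and in BEC 8.45, 9.13 and 9.44. Its spread was wide in every group, yet the highest LEC array, pre-col replicate 1, stayed under the lowest BEC array. For Rtp4 only 4 LEC arrays were above the array median, and the others lay at the dim end. Rtp4 had a log2 fold change of -2.93 ± 0.28 (adjusted p = 8.49e-06).

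The IFIT proteins bind foreign RNA and block its translation, and 2 of 3 IFIT genes tested were lower in LEC. Ifit1 was lower, with pre-col LEC replicate 1 reaching the BEC range. The col LEC arrays gave 7.55, 7.86 and 7.56 for Ifit1, the pre-col LEC arrays 9.13, 7.98 and 7.09, the cap LEC arrays 7.51, 7.79 and 7.97 and the BEC arrays 9.73, 9.12 and 9.38. For Ifit1 LEC minus BEC came to -1.58 ± 0.31 (adjusted p = 0.00260). Without that array the log2 fold change was -1.76, with an adjusted p of 3.27e-05. Ifit3, a partner of Ifit1, was 2.72-fold lower. Ifit3 read 6.56, 6.86 and 6.66 on the col LEC arrays, 6.48, 6.64 and 6.81 on the pre-col LEC arrays, 6.59, 6.67 and 6.88 on the cap LEC arrays and 7.93, 8.11 and 8.34 on the BEC arrays. No LEC array came within 1 unit of the BEC arrays, pre-col replicate 1 included. Ifit3 had a log2 fold change of -1.44 ± 0.11 (adjusted p = 6.23e-07). Ifit2 was not called. In col LEC Ifit2 had levels of 9.08, 8.70 and 8.65, in pre-col LEC 9.66, 9.32 and 9.24, in cap LEC 9.56, 9.21 and 8.82 and in BEC 9.35, 9.31 and 8.96. All groups overlapped with BEC, and pre-col LEC had the highest mean. For Ifit2 LEC minus BEC came to -0.07 ± 0.16 (adjusted p = 0.770).

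**Figure D2:**
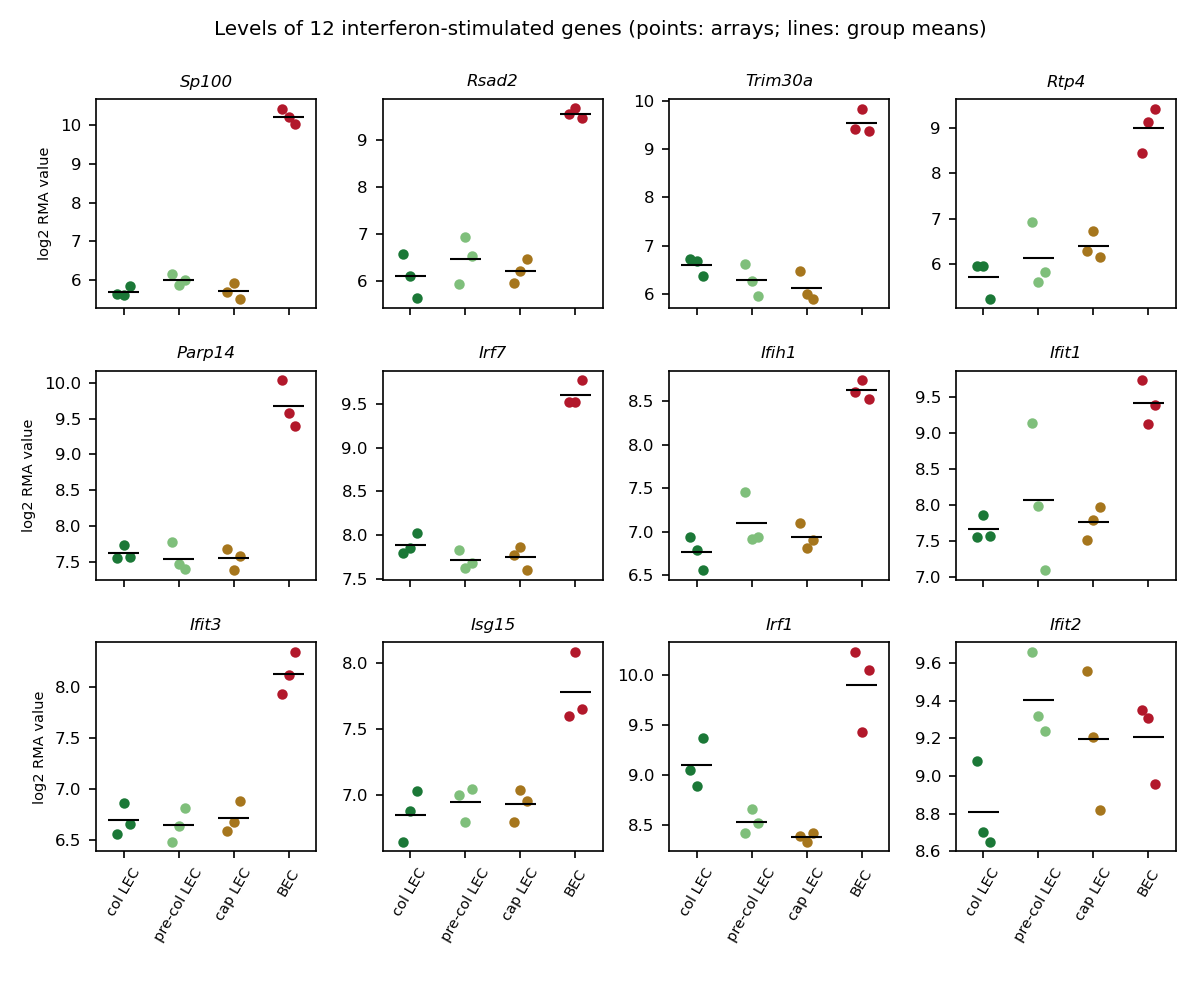
Log2 RMA values (vertical axes, each panel with its own scale) of 12 interferon-stimulated genes in col LEC, pre-col LEC, cap LEC and BEC; points are arrays and lines are means of 3 arrays. BEC lie above all LEC for every gene shown except Ifit1, where pre-col LEC replicate 1 at 9.13 reaches the lowest BEC array at 9.12, and Ifit2, where all groups overlap.

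The oligoadenylate synthetases activate RNase L when they bind double-stranded RNA, and the OASL proteins are related to them. Oasl2 was 2.69-fold lower in LEC. Oasl2 read 5.59, 5.54 and 5.56 on the col LEC arrays, 6.11, 5.67 and 5.61 on the pre-col LEC arrays, 5.63, 5.58 and 5.51 on the cap LEC arrays and 6.82, 6.89 and 7.51 on the BEC arrays. The LEC arrays lay at the dim end of the scale, with pre-col replicate 1 highest among them. Oasl2 had a log2 fold change of -1.43 ± 0.14. Oas2 showed the same layout. In col LEC Oas2 had levels of 5.79, 5.52 and 5.47, in pre-col LEC 5.80, 5.61 and 5.56, in cap LEC 5.58, 5.45 and 5.61 and in BEC 6.86, 6.65 and 7.15. Its 9 LEC arrays were below the array median, and no LEC array overlapped with BEC. For Oas2 LEC minus BEC came to -1.29 ± 0.11. Oas2 and Oasl2 had passed the filter only through BEC arrays, so the values of both are a description. Oasl1, which in mouse restrains the translation of Irf7, had 6.99 to 7.23 (median 7.07) on LEC arrays and 7.46, 7.53 and 7.85 on BEC arrays, without overlap. Oasl1 had a log2 fold change of -0.52 ± 0.08 (adjusted p = 0.000542). Oas3 was nearly level, with 6.75 to 6.95 (median 6.93) on LEC arrays and 6.98, 6.96 and 7.04 on BEC arrays, and was not called although the groups did not overlap. The log2 fold change of Oas3 was -0.10 ± 0.06 (adjusted p = 0.267).

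Mx2 encodes a dynamin-like GTPase. Mx2 read 6.19, 5.97 and 6.27 on the col LEC arrays, 6.08, 5.94 and 5.94 on the pre-col LEC arrays, 5.92, 6.29 and 6.23 on the cap LEC arrays and 7.85, 6.96 and 7.50 on the BEC arrays. LEC arrays were near the array median and BEC arrays were all higher, replicate 2 the least. Mx2 had a log2 fold change of -1.35 ± 0.15 (adjusted p = 3.26e-05). Its paralogue Mx1, which is disrupted in most inbred strains, was dim throughout. The col LEC arrays gave 5.54, 5.53 and 5.57 for Mx1, the pre-col LEC arrays 5.61, 5.45 and 5.54, the cap LEC arrays 5.54, 5.54 and 5.57 and the BEC arrays 5.73, 5.70 and 5.83. With no filter on dim genes, Mx1 had a log2 fold change of -0.21 ± 0.05 (moderated SE) and an adjusted p of 0.0173, and 34 of 41 genes were lower, against 7.44% of all genes. Bst2, which encodes tetherin, a membrane protein that holds budding virions at the cell surface, was bright in every group. In col LEC Bst2 had levels of 11.59, 11.63 and 11.61, in pre-col LEC 11.51, 11.63 and 11.60, in cap LEC 11.81, 11.92 and 11.84 and in BEC 11.98, 12.30 and 12.05. BEC were highest, cap LEC came next, and col and pre-col LEC lay together below them. For Bst2 LEC minus BEC came to -0.43 ± 0.07 (adjusted p = 0.000839).

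Isg15 encodes the ubiquitin-like modifier that is attached to proteins after interferon exposure. Isg15 read 6.65, 6.88 and 7.03 on the col LEC arrays, 7.0, 6.80 and 7.05 on the pre-col LEC arrays, 6.80, 7.04 and 6.96 on the cap LEC arrays and 7.60, 8.08 and 7.65 on the BEC arrays. The LEC arrays of the 3 groups mixed, and all were below the BEC arrays. Isg15 had a log2 fold change of -0.87 ± 0.11 (adjusted p = 0.000115). Ifi35, an interferon-induced leucine zipper protein, had 8.25 to 8.69 (median 8.54) on LEC arrays and 8.96, 9.23 and 9.18 on BEC arrays, without overlap. For Ifi35 LEC minus BEC came to -0.62 ± 0.09 (adjusted p = 0.000269). Xaf1, an antagonist of the apoptosis inhibitor XIAP, had 7.78 to 8.63 (median 8.44) on LEC arrays and 8.99, 8.92 and 8.61 on BEC arrays, which overlapped. Xaf1 had a log2 fold change of -0.48 ± 0.16 (adjusted p = 0.0466), and the call was lost in 10 of 20 alternatives (adjusted p up to 0.151, without BEC replicate 1). Samd9l, a restriction factor for poxviruses, had 9.15 to 9.70 (median 9.34) on LEC arrays and 10.04, 9.77 and 9.46 on BEC arrays. It overlapped and was not called. For Samd9l LEC minus BEC came to -0.36 ± 0.13 (adjusted p = 0.0782), but it was called without col LEC replicate 3 (adjusted p = 0.0309) and without BEC replicate 3 (0.0311).

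Of 4 enzymes that attach or remove ubiquitin or ISG15, 3 were lower in LEC. Trim30a, a ligase of the TRIM family that dampens Toll-like receptor signalling, was 9.25-fold lower. Its levels were 6.72, 6.68 and 6.38 in col LEC, 6.62, 6.28 and 5.97 in pre-col LEC, 6.47, 6.01 and 5.91 in cap LEC and 9.42, 9.84 and 9.38 in BEC. Only 6 LEC arrays were above the array median and the others lay below it, at the dim end of the scale. BEC arrays stood around 3 units higher. Trim30a had a log2 fold change of -3.21 ± 0.16 (adjusted p = 2.01e-08). The mouse has close copies of Trim30a beside it, and probes may be shared with them. Usp18, which removes ISG15 and blocks signalling at IFNAR2, had 7.53 to 7.95 (median 7.87) on LEC arrays and 8.70, 9.09 and 9.29 on BEC arrays. The log2 fold change of Usp18 was -1.20 ± 0.12 (adjusted p = 1.22e-05). Trim25, the ligase that activates RIG-I, had 8.81 to 9.31 (median 9.0) on LEC arrays and 10.14, 10.16 and 9.87 on BEC arrays. Trim25 had a log2 fold change of -1.06 ± 0.11 (adjusted p = 1.60e-05). Both were without overlap. Herc6, the main ISG15 ligase of the mouse, had 6.79 to 8.0 (median 7.47) on LEC arrays and 8.14, 7.92 and 7.63 on BEC arrays. These overlapped, and it was not called. For Herc6 LEC minus BEC came to -0.48 ± 0.21 (adjusted p = 0.137), and adjusted p = 0.0316 without pre-col LEC replicate 1.

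PARP enzymes attach ADP-ribose to proteins, and the 4 genes of this group were all lower in LEC. Parp14, a regulator of STAT-dependent transcription and of viral replication, was 4.31-fold lower. In col LEC Parp14 had levels of 7.55, 7.73 and 7.57, in pre-col LEC 7.77, 7.46 and 7.40, in cap LEC 7.68, 7.38 and 7.58 and in BEC 10.04, 9.58 and 9.40. LEC arrays lay close together and BEC arrays well above them. Parp14 had a log2 fold change of -2.11 ± 0.13 (adjusted p = 1.14e-07). Parp9 and Dtx3l encode partners in a complex that modifies histones and viral proteins. Parp9 had 7.24 to 7.61 (median 7.33) on LEC arrays and 8.06, 8.01 and 8.01 on BEC arrays. For Parp9 LEC minus BEC came to -0.66 ± 0.09 (adjusted p = 0.000114). Dtx3l had 7.63 to 8.22 (median 8.01) on LEC arrays and 9.10, 9.10 and 8.74 on BEC arrays. Dtx3l had a log2 fold change of -0.96 ± 0.12 (adjusted p = 7.18e-05). Parp12, a zinc finger enzyme with antiviral activity, was bright throughout. The col LEC arrays gave 9.47, 9.45 and 9.57 for Parp12, the pre-col LEC arrays 9.63, 9.31 and 9.66, the cap LEC arrays 9.18, 9.56 and 9.69 and the BEC arrays 9.94, 10.44 and 10.09. For Parp12 LEC minus BEC came to -0.66 ± 0.13 (adjusted p = 0.00244). None of the 4 overlapped between LEC and BEC.

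The interferon-inducible GTPases, which assemble on vacuoles that hold bacteria or parasites, were lower in LEC for 5 of 5 genes tested. Gbp2 is a guanylate-binding protein of this kind. Gbp2 read 8.39, 8.18 and 8.11 on the col LEC arrays, 8.32, 7.58 and 7.44 on the pre-col LEC arrays, 8.27, 7.66 and 8.17 on the cap LEC arrays and 9.42, 9.43 and 9.34 on the BEC arrays. BEC arrays lay close together, while pre-col and cap LEC arrays were more spread. Gbp2 had a log2 fold change of -1.38 ± 0.17 (adjusted p = 7.42e-05). Its neighbours on the chromosome behaved likewise. Gbp3 had 7.42 to 8.01 (median 7.59) on LEC arrays and 8.92, 8.92 and 8.82 on BEC arrays. The log2 fold change of Gbp3 was -1.29 ± 0.11 (adjusted p = 2.98e-06). For Gbp7, the levels were 9.35, 9.80 and 9.99 in col LEC, 9.83, 9.43 and 9.32 in pre-col LEC, 9.60, 9.52 and 9.52 in cap LEC and 10.78, 10.73 and 10.79 in BEC. LEC and BEC were separate for all 3 Gbp genes. Gbp7 had a log2 fold change of -1.17 ± 0.13 (adjusted p = 2.46e-05).

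The smaller GTPases differed less evenly. Igtp, also called Irgm3, had 6.95 to 8.28 (median 7.76) on LEC arrays and 8.78, 8.90 and 8.40 on BEC arrays, with the widest spread in col and pre-col LEC. For Igtp LEC minus BEC came to -1.01 ± 0.27 (adjusted p = 0.0155), and the call was lost without BEC replicate 1 (adjusted p = 0.0560) and without BEC replicate 2 (0.0659). Irgm1, a regulator of the other immunity-related GTPases and of autophagy, had 7.82 to 8.20 (median 7.98) on LEC arrays and 8.74, 8.46 and 8.51 on BEC arrays. Irgm1 had a log2 fold change of -0.57 ± 0.09 (adjusted p = 0.000435). Lgals3bp, a secreted glycoprotein that binds galectins, had 8.82 to 9.22 (median 8.96) on LEC arrays and 9.74, 9.92 and 9.86 on BEC arrays. For Lgals3bp LEC minus BEC came to -0.83 ± 0.07 (adjusted p = 1.74e-06). Igtp, Irgm1 and Lgals3bp did not overlap between LEC and BEC.

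**Figure D3:**
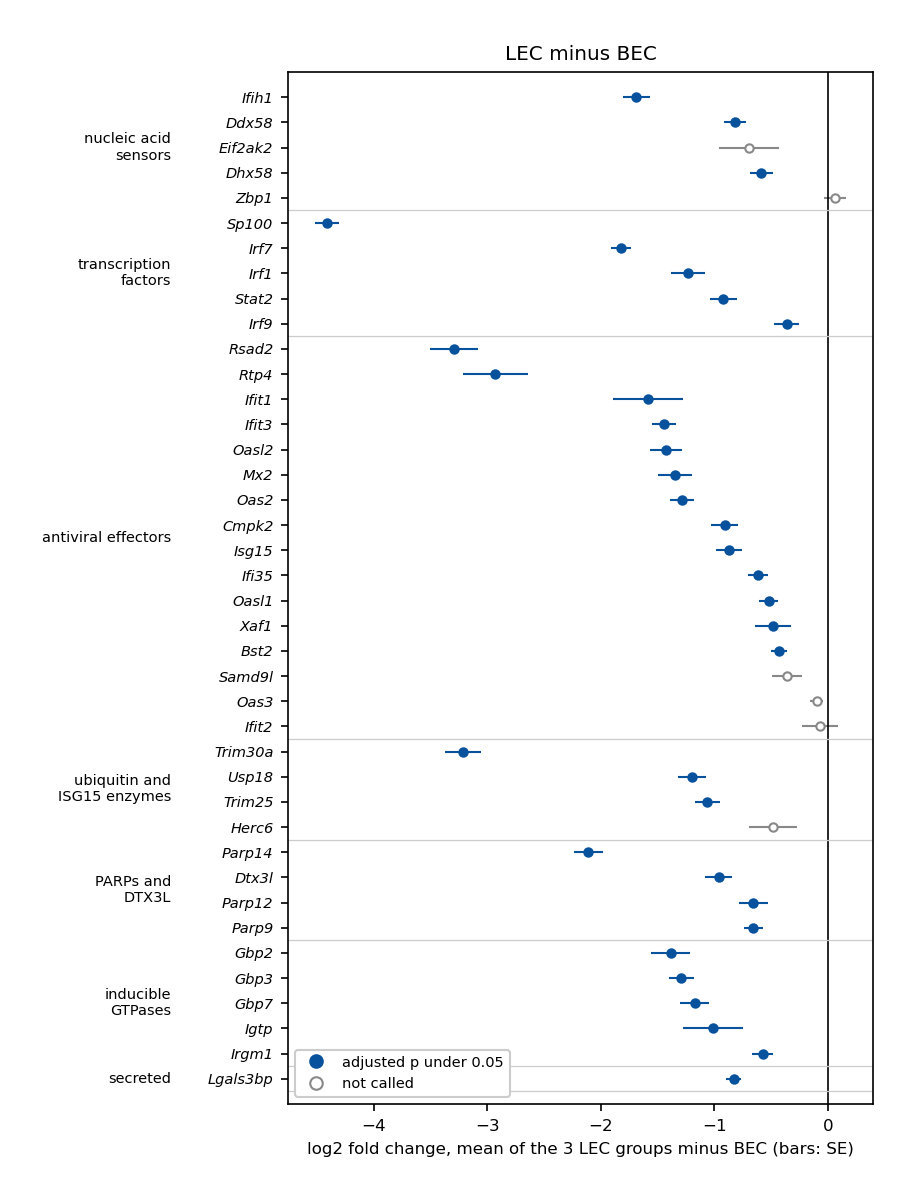
Log2 fold change, mean of the 3 LEC groups minus BEC (horizontal axis), of the 40 genes tested, by role; bars are moderated standard errors. Filled points are the 34 genes called by limma at an adjusted p under 0.05, all to the left of 0, from -4.41 for Sp100 to -0.36 for Irf9.

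Promoters were examined because the listed genes share the interferon pathway and most of them differed in one direction. RefSeq promoter sequence (GRCm38.p6), from 250 bases before to 50 after a gene's start, was matched for 32 of the 41 genes. Both strands were searched for the core of the interferon-stimulated response element, which is GAAA, any 2 bases and GAAA again (TTTC, any 2 bases and TTTC on the other strand), and for the gamma-activated sequence, which is TTC, any 3 bases and GAA. The first was present in 16 of 32 genes (50%), against 3.43% of 12252 genes tested on the arrays and 3.99% of all 27025 genes of the table. The second was present in 7 of 32 genes (21.9%), against 8.06% and 9.55%. Of the 27 genes lower in LEC, 14 held the response element (51.9%), as did 2 of the 5 that were not called, Eif2ak2 and Oas3. Sp100 and Irf7 held neither sequence in this window, and Ifih1 held the response element 32 bases after its start. The list was made of known interferon targets, so its shares beside those of all genes describe that choice. They do not bear on the difference between LEC and BEC. A match describes letters and is not evidence of binding.

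Stretches of 80 bases are shown for genes with large differences (Rsad2, Trim30a, Ifit1, Ifit3, Gbp2), for Isg15 with 3 overlapping copies, for Oas3 as a gene that was not called, and for Irf1 with the gamma-activated sequence. Each reads from 5′ to 3′ in the direction of the gene, and capitals mark the matches.
Rsad2: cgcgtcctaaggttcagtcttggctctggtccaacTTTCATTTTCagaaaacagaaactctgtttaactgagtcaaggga
Trim30a: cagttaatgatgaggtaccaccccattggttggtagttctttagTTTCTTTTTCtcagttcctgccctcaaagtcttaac
Ifit1: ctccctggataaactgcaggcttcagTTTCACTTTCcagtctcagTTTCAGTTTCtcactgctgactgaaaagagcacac
Ifit3: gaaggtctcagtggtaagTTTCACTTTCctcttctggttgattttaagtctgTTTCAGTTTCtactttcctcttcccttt
Gbp2: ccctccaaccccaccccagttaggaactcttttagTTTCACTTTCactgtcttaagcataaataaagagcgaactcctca
Isg15: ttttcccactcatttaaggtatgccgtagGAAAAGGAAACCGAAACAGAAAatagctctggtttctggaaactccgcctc
Oas3: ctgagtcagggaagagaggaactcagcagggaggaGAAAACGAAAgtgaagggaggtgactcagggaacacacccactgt
Irf1: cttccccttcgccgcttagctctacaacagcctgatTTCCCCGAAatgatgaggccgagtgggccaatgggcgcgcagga
These stretches lie, in GRCm38.p6, at chr12:26456528-26456607 for Rsad2 (minus strand), chr7:104465194-104465273 for Trim30a (minus strand), chr19:34640759-34640838 for Ifit1 (plus strand), chr19:34583355-34583434 for Ifit3 (plus strand), chr3:142620569-142620648 for Gbp2 (plus strand), chr4:156200846-156200925 for Isg15 (minus strand), chr5:120777690-120777769 for Oas3 (minus strand) and chr11:53769888-53769967 for Irf1 (plus strand). The first match began 120 bases before the start of Rsad2, 36 before Trim30a, 104 before Ifit1, 156 before Ifit3, 59 before Gbp2, 78 before Isg15, 75 before Oas3 and 90 before Irf1. Ifit1 and Ifit3 each held 2 separate copies. The same core thus stood before Rsad2, which was 9.81-fold lower in LEC, and before Oas3, which was not called.

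Each LEC group was also set against BEC on its own, with the same 3 BEC arrays in every comparison. In col LEC 32 of the 40 genes were lower and 0 higher, against 7.95% lower and 8.3% higher over all genes. Pre-col LEC had 32 lower and 0 higher, against 8.19% and 7.38%. Cap LEC had 31 lower and 0 higher, against 9.6% and 11.1%. These counts include Oas2 and Oasl2, which had passed the filter only through BEC arrays. Without them 30 of 38 were lower in col LEC, 30 in pre-col LEC and 29 in cap LEC. The genes with a positive estimate numbered 1 in col LEC, 2 in pre-col LEC and 1 in cap LEC, of 40 each. The medians over the 40 genes were -0.98 for col LEC, -0.93 for pre-col LEC and -0.93 for cap LEC. For Sp100 the log2 fold changes were -4.52 ± 0.13 for col LEC, -4.21 ± 0.13 for pre-col LEC and -4.51 ± 0.13 for cap LEC. The values of Sp100 are a description, since its place in the test rested on BEC. Rsad2 gave -3.45 ± 0.26 for col LEC, -3.09 ± 0.26 for pre-col LEC and -3.34 ± 0.26 for cap LEC. Irf1 was less even, at -0.80 ± 0.18 for col LEC, -1.37 ± 0.18 for pre-col LEC and -1.52 ± 0.18 for cap LEC.

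Along the lymphatic tree no interferon-stimulated gene was called when only the 4 group means were fitted to the 12 arrays with equal weights. In col LEC minus cap LEC 0 of 40 genes were called by limma, with a smallest adjusted p of 0.0805. Of all genes 0.958% were lower and 0.647% higher there. An unadjusted p under 0.05 was found for 4 of the 40 genes and for 2048 of all 19624 genes tested. For col LEC minus pre-col LEC the count was 0 of 40, with a smallest adjusted p of 0.467, against 0.178% lower and 0.122% higher. Here 4 of the 40 genes had an unadjusted p under 0.05, as did 1142 of the 19624. In pre-col LEC minus cap LEC it was 0 of 40, with a smallest adjusted p of 0.680, against 0.0% in either direction. An unadjusted p under 0.05 was found there for 2 of the 40 genes and 1251 of the 19624. The medians over the 40 genes were -0.01, -0.03 and -0.01 in these comparisons, and 0.03, 0.02 and 0.00 over all genes. For a typical gene the 3 LEC means spanned 0.17 units (median), and the range was 0.02 to 0.72.

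**Figure D4:**
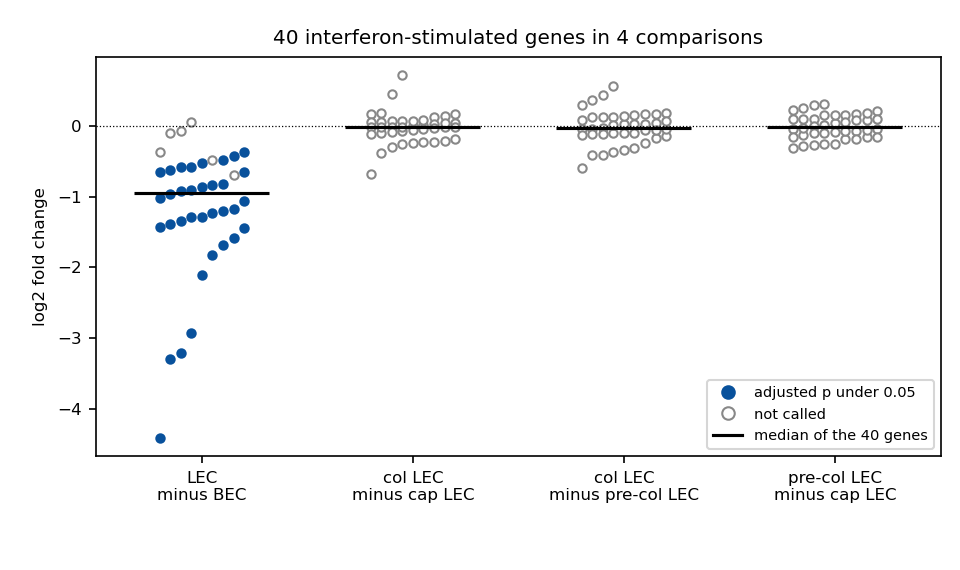
Log2 fold changes of the 40 genes tested (vertical axis) in 4 comparisons, each named under its column of points; filled points are called, and horizontal lines are medians. LEC minus BEC is centred at -0.94, and the medians of the 3 comparisons between LEC groups lie between -0.03 and -0.01, with Irf1 at 0.72 as the highest point.

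Irf1 had the largest difference between LEC groups, with a log2 fold change of 0.72 ± 0.18 (moderated SE) in col LEC minus cap LEC and an adjusted p of 0.0805. Its 3 col LEC arrays, at 9.05, 8.89 and 9.37, lay above its 3 cap LEC arrays, at 8.39, 8.33 and 8.42. The adjusted p was 0.0406 when only col and cap LEC entered the fit, 0.0123 without BEC replicate 2, 0.0158 with array weights, and 0.288 when both rows of the gene were averaged. Against pre-col LEC its col LEC log2 fold change was 0.57 ± 0.18, with an adjusted p of 0.467. Rtp4 followed in size, at -0.68 ± 0.35 in col LEC minus cap LEC, with an adjusted p of 0.544. Ifit2 had 9.08, 8.70 and 8.65 in col LEC, against 9.66, 9.32 and 9.24 in pre-col LEC, without overlap. Its log2 fold change was -0.60 ± 0.19, with an adjusted p of 0.473, and of 0.0472 with the replicate number as a block in the fit. Trim30a gave 0.46 ± 0.19 in col LEC minus cap LEC, with an adjusted p of 0.416.

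Bst2 was the gene closest to the threshold between pre-col and cap LEC. Its 3 pre-col LEC arrays, at 11.51, 11.63 and 11.60, lay below its 3 cap LEC arrays, at 11.81, 11.92 and 11.84. The log2 fold change was -0.28 ± 0.09 (moderated SE), with an adjusted p of 0.680. Col LEC minus cap LEC gave -0.25 ± 0.09 for Bst2, with an adjusted p of 0.277 and of 0.0497 with array weights. Lgals3bp gave -0.24 ± 0.08 in col LEC minus cap LEC, with an adjusted p of 0.262. In pre-col LEC minus cap LEC, Ifit1 had the largest estimate, 0.31 ± 0.38, with an adjusted p of 0.880, and Sp100 had 0.30 ± 0.13, with an adjusted p of 0.777.

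Other genes of the interferon pathway were counted over lists drawn up for this purpose, 101 genes tested in all. Like the 43 genes, these lists were chosen with earlier results of these data known. Their counts are a description and not independent support. In LEC minus BEC 4 of them were higher and 52 lower, against 12% and 10.6% of all genes. Ifit3b, Ifi204, Mndal and Ifi208 had passed the filter only through BEC arrays, and without them 4 of 97 were higher and 48 lower. In the 3 comparisons between LEC groups 0 were called by limma. The smallest adjusted p was 0.0905 in col LEC minus cap LEC, where 9 genes had an unadjusted p under 0.05. It was 0.529 in col LEC minus pre-col LEC, with 3 such genes, and 0.749 in pre-col LEC minus cap LEC, with 1. Of all 19624 genes tested, 2048, 1142 and 1251 had an unadjusted p under 0.05 in these comparisons. Of 6 interferon genes tested 0 were called in LEC minus BEC. An unadjusted p under 0.05 was found for 3 of the 6, and for 6659 of all 19624 genes tested. Ifnl2 gave -0.22 ± 0.08 (adjusted p = 0.0822) and Ifnl3 -0.20 ± 0.09 (adjusted p = 0.124). Ifnb1, the first type I interferon made after infection, was at 5.67 to 6.05 on the 12 arrays and did not pass the filter.

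Of 10 receptor and signalling genes listed, 9 had a row of their own and were tested. Of these 9, 3 were lower in LEC, against 10.6% of all genes. Ifngr1, the ligand-binding chain of the interferon gamma receptor, had 8.69 to 9.09 on LEC arrays and 10.30, 10.29 and 9.71 on BEC arrays, with a log2 fold change of -1.17 ± 0.13 (adjusted p = 2.42e-05). Jak2, the kinase bound to the other chain of that receptor, gave -0.78 ± 0.13 (adjusted p = 0.000784). Il10rb, a chain shared by the receptors for interferon lambda and interleukin 10, gave -0.52 ± 0.07 (adjusted p = 0.000152). The type I receptor chains were not called: Ifnar1 gave 0.04 ± 0.08 (adjusted p = 0.718) and Ifnar2 -0.12 ± 0.08 (adjusted p = 0.317).

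Among regulators and adaptors few genes were called: 1 of 10 regulators was higher and 2 were lower, and 2 of 12 adaptors and kinases were higher and 2 lower, with medians of 0.02 and -0.02. Over all genes 12% were higher and 10.6% lower, and so few calls show nothing particular to these groups. Of the negative regulators, Cish was higher in LEC, at 0.55 ± 0.09 (adjusted p = 0.000623), and Socs1 and Socs2 were lower, at -0.44 ± 0.10 (adjusted p = 0.00580) and -0.40 ± 0.06 (adjusted p = 0.000391). These encode SOCS-type proteins that switch off JAK signalling. Of the nucleic acid sensing adaptors and kinases, Mavs, the mitochondrial adaptor of RIG-I and MDA5, was higher at 0.54 ± 0.16 (adjusted p = 0.0304). Ikbke, a kinase that phosphorylates IRF3 and IRF7, was higher at 0.46 ± 0.09 (adjusted p = 0.00215). Myd88, the adaptor of most Toll-like receptors, was lower at -0.90 ± 0.11 (adjusted p = 4.19e-05), as was Trim56, at -0.36 ± 0.10 (adjusted p = 0.0185). Of the 3 other IRF family genes tested 0 were called in LEC minus BEC. An unadjusted p under 0.05 was found for 1 of the 3, and for 6659 of all 19624 genes tested. Irf8 gave 0.41 ± 0.15 (adjusted p = 0.0650) and Irf2 0.13 ± 0.10 (adjusted p = 0.397).

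Of 61 further interferon-stimulated genes tested, 45 were lower in LEC, 1 was higher and the median log2 fold change was -0.69, against 10.6% lower, 12% higher and a median of -0.02 over all genes. Without the 4 that had passed only through BEC arrays, 41 of 57 were lower, 1 was higher and the median was -0.65. This list too was chosen with earlier results of these data known. Ifi204, a DNA-binding protein of the HIN-200 family, had 4.74 to 5.87 on LEC arrays and 8.67, 8.12 and 8.58 on BEC arrays and a log2 fold change of -3.19 ± 0.17. Mndal, from the same gene cluster, gave -3.16 ± 0.17. Both are among the 4 whose place in the test required a difference, so these values are a description, and both belong to families of close copies that may share probes. Iigp1, an immunity-related GTPase, gave -2.86 ± 0.23 (adjusted p = 1.48e-06), and Gm4951, a predicted gene, gave -2.57 ± 0.19 (adjusted p = 6.93e-07). Parp8 was the exception, with 8.14 to 8.70 on LEC arrays, 7.14, 7.23 and 7.03 on BEC arrays and a log2 fold change of 1.20 ± 0.10 (adjusted p = 3.24e-06).

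Between LEC groups none of the pathway lists had a called gene, and the 2 genes with the smallest p of each list were the following. In col LEC minus cap LEC, the interferon genes Ifna5 and Ifnl3 gave log2 fold changes of 0.15 and 0.14, Il10rb and Jak1 gave 0.34 and -0.14, and the signalling inhibitors Socs2 and Socs3 gave 0.24 and 0.12. Rnf135, a ligase of the RIG-I pathway, and Tlr3, an endosomal receptor for double-stranded RNA, gave -0.28 and -0.33 there, Irf2 and Irf5 gave -0.15 and 0.09, and Ifi204 and the immunoproteasome subunit Psmb8 gave -0.63 and 0.47. Their adjusted p-values ran from 0.0905 for Il10rb to 0.826 for Irf5. These are small differences, and Il10rb came nearest to the threshold.

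For col LEC minus pre-col LEC, Ifna4 and Ifna5 gave 0.20 and 0.08, Il10rb and Tyk2 gave 0.20 and -0.17, and Socs2 and Socs3 gave 0.21 and 0.15. Ikbke and Trim56 gave -0.11 and -0.12, Irf2 and Irf5 gave -0.09 and -0.07, and Ifi27 and Ly6e, both small proteins induced by interferon, gave 0.37 and 0.21. The smallest adjusted p was that of Ifi27. In pre-col LEC minus cap LEC, Ifna4 and Ifnl3 gave -0.15 and 0.10, Il10rb and Jak1 gave 0.14 and -0.11, and the phosphatases Ptpn1 and Ptpn2 gave -0.16 and 0.14. Sting1, the adaptor of DNA sensing, and Rnf135 gave -0.21 and -0.19, Irf5 and Irf2 gave 0.16 and -0.06, and Ifitm2, a membrane protein that limits viral entry, and Ifi27 gave -0.27 each. The smallest adjusted p in this comparison was that of Ifitm2.

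Markers of some other cell types differed between LEC and BEC, where 10.6% of all genes were lower in LEC and 12% higher. The 9 mural cell markers had a median log2 fold change of -1.98, and Rgs5, a pericyte gene, was 6.67 to 10.21 on LEC arrays and 11.82, 11.40 and 11.12 on BEC arrays. Pre-col LEC replicate 1 had Acta2, the smooth muscle actin, at 10.21, inside the BEC range of 9.91 to 10.70. On that array the 41 interferon-stimulated genes lay 0.09 units above their LEC means (median), against -0.09 to 0.03 on the other LEC arrays and 0.87 to 0.94 on the BEC arrays. Without it, 35 of 40 genes were lower in LEC. Without BEC replicate 1, which carried Mmrn1, 31 of 40 were lower. Markers of plasmacytoid dendritic cells were lower in LEC for 4 of 6 genes, a list that itself holds Bst2 and Irf7. Mast cell markers were lower for 1 of 2 genes, Kit, while Cpa3 was at 3.97 to 4.15 on all arrays. Macrophage markers were lower for 1 of 8 genes, C1qa, with Adgre1 at 5.28 to 5.54. Dendritic and Langerhans cell markers were lower for 1 of 6 genes and neutrophil markers for 1 of 3. In lists this short, a single call says little beside the share over all genes. Of 5 T and NK cell markers 2 were higher in LEC, Thy1 at 9.84 to 10.49 on LEC arrays against 8.24 to 8.73 on BEC arrays and Cd2 at 5.73 to 6.57 against 5.70 to 5.93, while Cd3e lay at 6.26 to 6.52 on all arrays. The summed level of that list was 1423 to 1533 in col LEC, 1435 to 1951 in pre-col LEC, 1798 to 1872 in cap LEC and 752.5 to 965.1 in BEC. In that sum Thy1 far outweighs Cd2 and Cd3e. Keratinocyte markers were lower for 2 of 5 genes, with sums of 761.4 to 914.9 in col LEC, 752.1 to 797.2 in pre-col LEC, 674.4 to 758.4 in cap LEC and 855.9 to 1073 in BEC. Fibroblast markers were lower for 1 of 5 genes, Dpt, with sums of 789.6 to 1804 in col LEC, 915.4 to 3254 in pre-col LEC, 748.6 to 1012 in cap LEC and 1276 to 1602 in BEC. Dcn, a fibroblast proteoglycan, stood at 9.54 on col LEC replicate 1 and 10.38 on pre-col LEC replicate 1, against 6.05 to 7.58 on the other LEC arrays and 5.67 to 5.82 on BEC arrays. Without col LEC replicate 1, 33 of 40 interferon-stimulated genes were lower in LEC. How much RNA of mural or other cells adds to the levels of the interferon-stimulated genes was not tested.

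**Figure D5:**
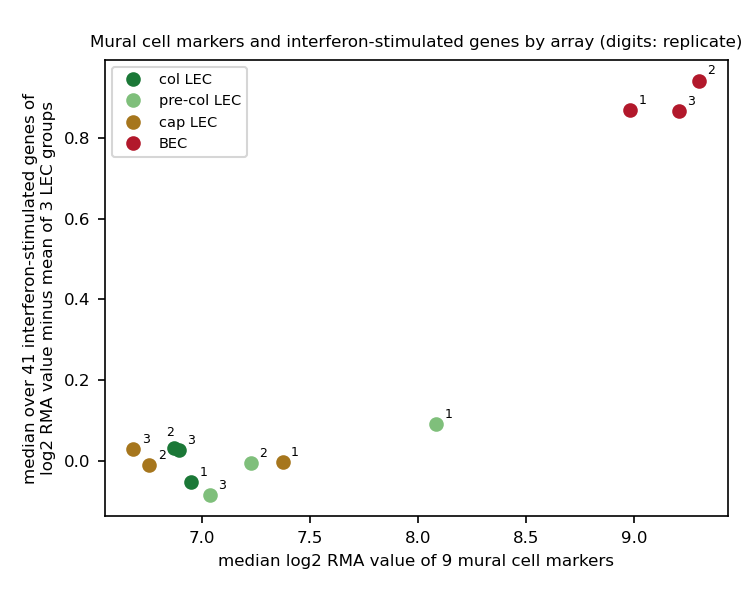
Each point is an array. The horizontal axis is the median log2 RMA value of 9 mural cell markers, the vertical axis the median over 41 interferon-stimulated genes of the log2 RMA value minus the mean of the 3 LEC groups; digits are replicate numbers. Pre-col LEC replicate 1 stands at 8.08 on the horizontal axis and 0.09 on the vertical axis, and the BEC arrays stand at 8.98 to 9.30 and 0.87 to 0.94.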

How the data were processed

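RNA from 12 samples in 4 sorted groups of 3 was measured on Affymetrix whole-transcript arrays from 500 pg of total RNA, per the labels' protocols. The values are log2 RMA values deposited by the authors, per the submitters' processing notes; that the scale is log2 follows from their range. Software, annotation and whether arrays were normalized jointly were not given in the sources used here. RMA equalises the arrays, so a change in total RNA per cell would not show.

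Of 72688 rows, 31252 named 1 gene in the platform annotation after symbols were updated through a RefSeq table (GRCm38.p6), and 1498 named several and were not used. The brightest row stood for a gene. Group means were fitted to all 12 arrays with limma 3.58.1 in R 4.3.3 (lmFit, eBayes; residual and prior degrees of freedom 8 and 3.63), tested two-sided, and p-values were adjusted by Benjamini-Hochberg over 19624 genes; a call is an adjusted p under 0.05. The script was tested on simulated data. The number of arrays limits the precision: the median SD within groups was 0.141. Errors beside fold changes are moderated standard errors.

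Every array's value is given for the 12 called genes with the largest fold change and the 3 brightest and 3 dimmest rows. For other genes called in LEC minus BEC the LEC arrays are given by range and median. Ifit2, Irf1, Isg15 and Oas3 were picked out after their values were seen. Of each pathway list, up to 4 called genes are named, or the 2 with the smallest p. The genes and lists were chosen with earlier results of these data known. Alternatives changed the normalization, array weights, filter, row choice, variance prior, samples and replicate block.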

Additional observations from a re-analysis of the deposited data

How the results depend on the processing

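The count of interferon-stimulated genes lower in LEC than in BEC, 34 of 40, was 31 to 35 when 1 array was left out (12 fits) and 29 to 35 over 12 other alternatives, 29 of 35 with genes above the median on at least 9 arrays; 1 of the 12, which leaves out Oas2 and Oasl2, was chosen after seeing the data. The median log2 fold change ranged from -1.02 to -0.87. Of the 34 genes, 30 were called in every alternative fitted on them and in each single LEC group against BEC; Irf9, Xaf1 and Igtp were not, nor was Bst2, whose call was missing only in cap LEC minus BEC (adjusted p = 0.0642). Eif2ak2, Samd9l and Herc6 were called in some. In col LEC minus cap LEC the count of 0 became 2 with array weights (Irf1 and Bst2) and 1 when only the groups compared were fitted (Irf1), and was 0 to 1 when an array was left out; the 1 is Irf1 without BEC replicate 2. Replicate numbers were not taken as pairs, since not every pair of arrays with the same number had deviations correlated over 0.1 (7 of 18, median 0.092, range -0.093 to 0.21), although only 2 of 36 pairs with different numbers did (median -0.036). With the replicate number as a block, col LEC minus pre-col LEC had 1 gene (Ifit2, log2 fold change -0.60, adjusted p = 0.0472), LEC minus BEC had 35, the added gene being Eif2ak2 (log2 fold change -0.69, adjusted p = 0.0306), and no call was lost. The cause of these changes was not tested. Over all genes, col LEC minus cap LEC gave 315 calls, 788 with array weights and 177 to 347 with an array left out. Col LEC minus pre-col LEC gave 59, against 151 with array weights, 5 with only the groups compared and 24 to 63 with an array left out. Pre-col LEC minus cap LEC gave 0, against 28 with array weights, 14 with cyclic loess, 7 with quantile normalization, 3 with the block, 1 with a trended prior and 0 to 1 with an array left out. LEC minus BEC already uses all 4 groups, so the fit of only the groups compared does not apply to it. Genes near the dim end have compressed differences.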
